A study of Mus musculus with 6 samples.

Results

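The genes described here are the mouse SLC25 mitochondrial carriers, taken as every gene whose platform symbol is Slc25a followed by a number. One Affymetrix array was hybridised per heart, with 3 hearts of GRK2+/- mice and 3 of wild-type (WT) mice. GRK2, encoded by Grk2 (formerly Adrbk1), is a kinase that phosphorylates activated G protein-coupled receptors, among them the beta-adrenergic receptors of the heart, and so dampens their signal. All mice were 9 months old; hearts were stopped in diastole with potassium chloride, the upper part was used, and only RNA of adequate quality was taken on. GRK2+/- mice carried the B6.129-Adrbk1tm1Mca/J allele in the heterozygous state, backcrossed onto C57BL/6J, and WT mice were C57BL/6J littermates. The labels give neither a tissue-restricted driver nor any other treatment, and they do not state sex. Where a gene had several probe sets, the brightest on average across the 6 arrays stood for it, which gave 44 SLC25 genes among 18193 named genes. No probe set was named Grk2 or Adrbk1, so the targeted gene was not used to check the genotype labels.

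SLC25 proteins lie mostly in the inner mitochondrial membrane, where each one opens alternately to the matrix and to the space outside and carries a small metabolite across, often in exchange for another. In heart muscle the ADP/ATP and phosphate carriers feed the ATP synthase and export its product, the aspartate/glutamate and oxoglutarate carriers move reducing equivalents in the malate-aspartate shuttle, and the carnitine/acylcarnitine carrier brings in long-chain fatty acids. Other members carry coenzymes, nucleotides for mitochondrial DNA and RNA, glutathione, iron and amino acids.

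The comparison of GRK2+/- with WT hearts asks how loss of a single Grk2 allele alters expression in the adult heart, here for these carriers. The brightest carriers of the energy pathway, Slc25a4 and Slc25a3, differed by less than 0.02 on the log2 scale, while among carriers at intermediate levels some lay higher and others lower in GRK2+/- hearts. The differences ran from -0.33 (Slc25a33, a pyrimidine nucleotide carrier) to 0.43 (Slc25a37, the iron carrier mitoferrin 1). The median over the 44 genes was -0.014 (0.0148 with centred arrays), beside -0.019 over all 18193 genes (0.0101 with centred arrays), and 19 members lay above 0 and 25 below. With limma, 0 of 44 members and 0 of 18193 genes (0%) passed an adjusted p of 0.05, and the smallest adjusted p among the members was 0.172 (Slc25a23). Without GRK2+/- heart 1, 56 genes passed, 0 of them SLC25 genes. At an unadjusted p under 0.05 there were 9 members (20.5%, against 14% of all genes). Of these 6 were higher in GRK2+/- hearts (13.6%, against 6.30%), namely Slc25a15, Slc25a22, Slc25a23, Slc25a36, Slc25a37 and Slc25a42. The 3 lower ones (6.82%, against 7.70%) were Slc25a25, Slc25a33 and Slc25a38. In 10 members (22.7%, against 19.1% of all genes) the 3 GRK2+/- values all lay on the same side of the 3 WT values, above them in 6 (13.6%, against 7.44%) and below them in 4 (9.09%, against 11.6%). These shares are close to the background for the lower genes and for separation of the groups in both directions together. Separation above the WT values (13.6%, against 7.44%) was more frequent than over all genes, but that share depends on level. At or above the median level, where 33 members lay, it was 18.2% of members and 11.4% of all genes. Below the median it was 0 of 11 members and 3.53% of all genes. Higher genes at an unadjusted p under 0.05 made up 18.2% of members and 9.62% of all genes at or above the median. Below it they were 0 of 11 members and 2.98% of all genes. The count of higher members, above the background with all hearts, was 3 (6.82% of 44) without GRK2+/- heart 3 (4.86% of all genes) or without WT heart 2 (4.69% of all genes). That of lower members was 1 without GRK2+/- heart 2 (5.63% of all genes) or without WT heart 3 (4.96% of all genes). The number of members with separate groups was 21 without GRK2+/- heart 1, where fewer values are compared. The share over all genes was not counted in that setting, so the number cannot be set beside a background. With arrays centred on their own medians, 63.5% of the calls over all genes were on the higher side, against 45% as deposited. The members called were then 6 higher and 2 lower, beside 8.5% and 4.89% of all genes.

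**Figure D1:**
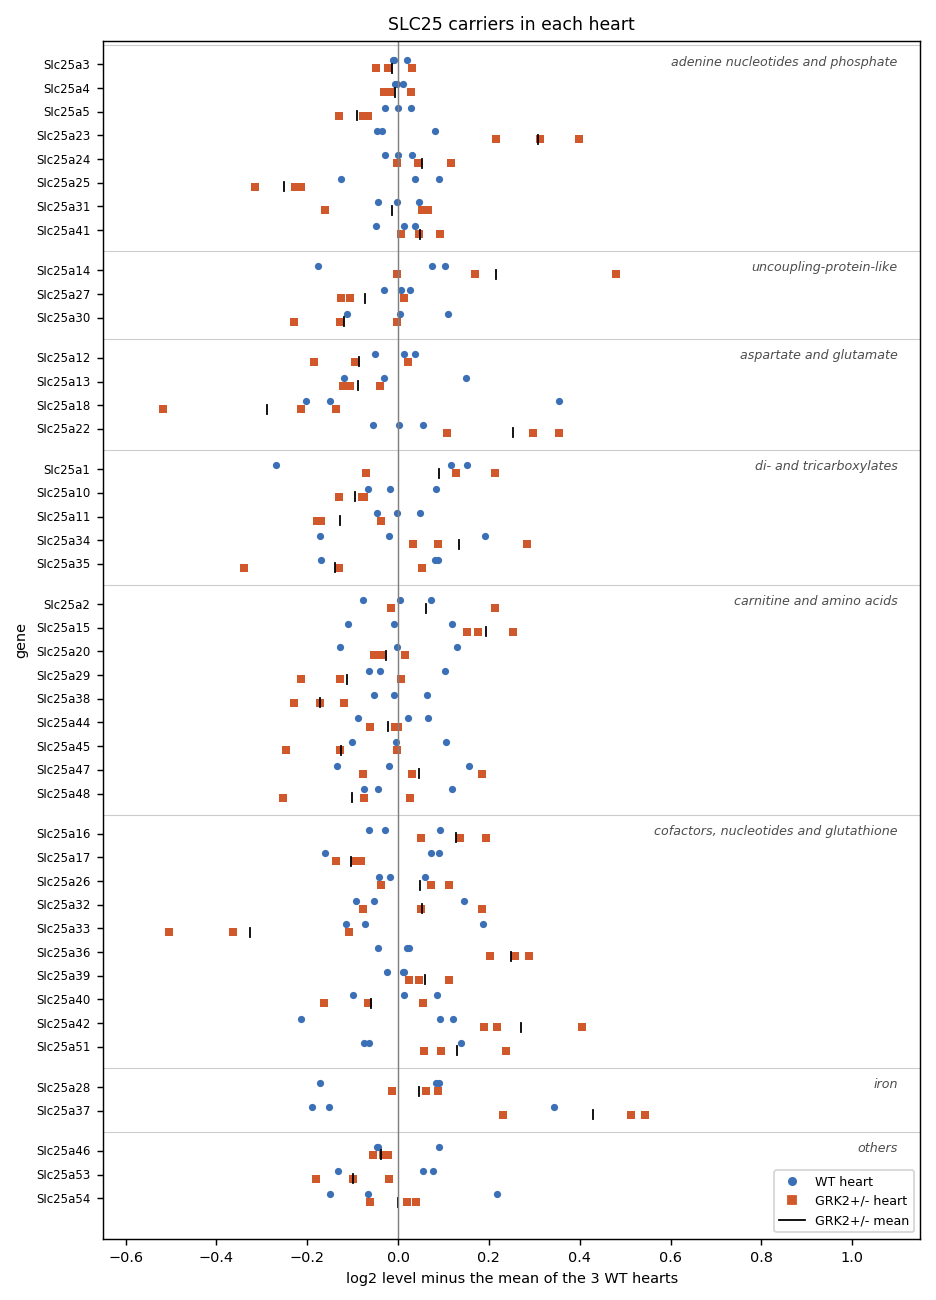
Log2 level of each SLC25 gene in each heart, minus the mean of the 3 WT hearts (horizontal axis), by substrate group (vertical axis). Blue circles are WT hearts, orange squares GRK2+/- hearts and black ticks the GRK2+/- mean. The ticks run from -0.33 for Slc25a33 to 0.43 for Slc25a37, and those of Slc25a3 and Slc25a4 lie next to 0.

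The ADP/ATP and phosphate carriers of the working heart were at the top of the brightness range. Slc25a4 (ANT1), the ADP/ATP carrier of heart and skeletal muscle, read 14.73, 14.72 and 14.72 in WT hearts 1 to 3 and 14.75, 14.71 and 14.69 in GRK2+/- hearts 1 to 3. The groups overlapped, and the difference of -0.0061 had a 95% interval from -0.15 to 0.14. Slc25a3, the phosphate carrier, read 14.39, 14.39 and 14.42 in WT and 14.43, 14.35 and 14.38 in GRK2+/- hearts. Its difference of -0.014 had a 95% interval from -0.16 to 0.13. In both carriers GRK2+/- heart 1 read above the 3 WT hearts and the other two GRK2+/- hearts below them, by small amounts. Slc25a5 (ANT2), the ADP/ATP carrier of dividing and many other cells, read 13.21, 13.24 and 13.19 in WT and 13.15, 13.08 and 13.14 in GRK2+/- hearts. All GRK2+/- values lay below all WT values, and the difference of -0.091 ± 0.06 (moderated SE of limma, n = 3 per group) had a 95% interval from -0.24 to 0.053. Its limma adjusted p was 0.546. Slc25a31 (ANT4), the ADP/ATP carrier of male germ cells, had a WT mean of 4.23, below the 25th percentile of all genes (5.76), and differed by -0.014.

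The carriers that exchange ATP-Mg for phosphate, most of them controlled by calcium, set the size of the matrix adenine nucleotide pool, and 2 of them lay on opposite sides. Slc25a23 (SCaMC-3) read 7.84, 7.71 and 7.73 in WT and 8.16, 7.98 and 8.07 in GRK2+/- hearts. Every GRK2+/- heart was above every WT heart. The difference was 0.31 ± 0.08 (SE, n = 3 per group), or 1.24-fold, with a limma adjusted p of 0.172. Slc25a25 (SCaMC-2), a related carrier of muscle and brain, read 7.92, 8.08 and 8.13 in WT and 7.82, 7.73 and 7.83 in GRK2+/- hearts. Here every GRK2+/- heart was below every WT heart. The difference was -0.25 ± 0.08 (SE, n = 3 per group), or 1.19-fold lower, with a limma adjusted p of 0.23. All 3 probe sets of Slc25a25 pointed that way, from -0.25 to -0.14, whereas Slc25a23 had a single probe set. The other members, Slc25a24 (SCaMC-1) and the calcium-independent Slc25a41, had overlapping groups and differed by 0.053 ± 0.07 (WT mean 7.38) and 0.048 ± 0.07 (WT mean 6.65).

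The pyrimidine nucleotide carriers, which bring building blocks of mitochondrial DNA and RNA into the matrix, also lay on opposite sides. Slc25a36 (PNC2) read 9.12, 9.05 and 9.12 in WT and 9.30, 9.39 and 9.35 in GRK2+/- hearts. The groups did not overlap, and the difference of 0.25 ± 0.07 (SE, n = 3 per group), or 1.19-fold, was larger than the spread within either group. Its limma adjusted p was 0.192, and its 3 probe sets gave 0.060, 0.22 and 0.25. Slc25a33 (PNC1), a gene known to be induced by insulin and IGF1 in cultured cells, read 9.89, 9.93 and 10.19 in WT and 9.90, 9.50 and 9.64 in GRK2+/- hearts. GRK2+/- heart 1 lay within the WT range and the other two lay below it. The difference was -0.33 ± 0.11 (SE, n = 3 per group), or 1.25-fold lower, from 1 probe set, with a limma adjusted p of 0.269. The test of a difference between the carriers of a pair was not run, since the pairs were noted after the values were seen.

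**Figure D2:**
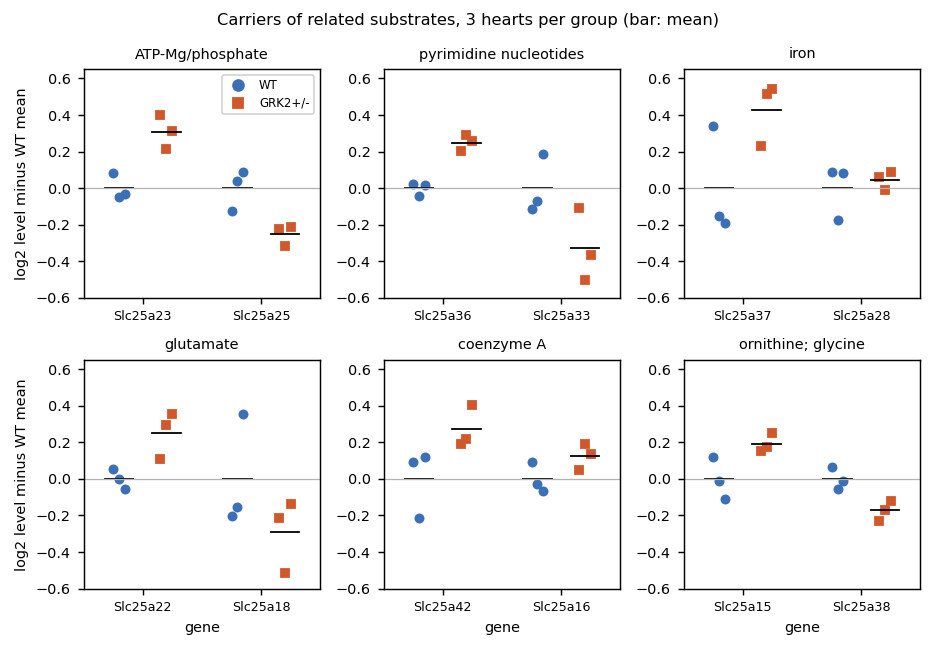
Log2 level minus the WT mean (vertical axis) of 12 carriers in 6 panels by substrate, with WT hearts as blue circles, GRK2+/- hearts as orange squares and bars at the group means. Slc25a23 and Slc25a36 lie above the WT values in every GRK2+/- heart, Slc25a25 lies below them in every GRK2+/- heart, and Slc25a33 lies below them in all but GRK2+/- heart 1.

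Start regions are shown for both pyrimidine nucleotide carriers and for every member window with a full TGACGTCA. That of Slc25a25 was thus picked by its motif, and those of Slc25a23 are not shown. RefSeq windows of 300 bases (250 before to 50 after a start site, assembly GRCm38.p6) were held for 34 of the 44 members, in 43 windows. Motifs were searched on both strands. The cyclic AMP response element TGACGTCA, to which CREB binds, was in 2 of 43 windows (4.65%, against 1.79% of all 32851 windows), those of Slc25a25 and Slc25a36, of which the former was lower and the latter higher in GRK2+/- hearts. The E-box CACGTG was in 8 of 43 windows (18.6%, against 7.15%), and the shorter TGACG, which also lies inside TGACGTCA, in 13 (30.2%, against 20.8%). All 3 motifs hold a CpG, and the members' windows had a median GC content of 59.7%, against 52.7% over all windows. The motifs TCAAGGTCA (ERR) and ACCGGAAGT (GABP), the palindromic NRF1 site and the glucocorticoid response element were in 0 of 43 windows, and in 0.423%, 1.1%, 0.971% and 0.00913% of all windows; the set of motifs was chosen after the values were seen. The windows of Slc25a23, Slc25a22, Slc25a38 and Slc25a42 held none of the motifs searched. In the sequences below, written 5′ to 3′ on the strand of the gene, capitals mark TGACGTCA, TGACG and CACGTG or their reverse complements. The window of Slc25a25 is the 1 of its 3 with TGACGTCA (chr2:32424017-32424316, minus strand), at 150 bases before the start site. That of Slc25a36 is chr9:97110992-97111291 (minus strand), with TGACGTCA at 161 and CACGTG at 187 bases before the start site. That of Slc25a33 is chr4:149774218-149774517 (minus strand), with CACGTG at 8 bases before the start site, overlapping a TGACG, and a reverse complement of TGACG at 28. These matches are letters in the sequence, and binding was not measured.
Slc25a25: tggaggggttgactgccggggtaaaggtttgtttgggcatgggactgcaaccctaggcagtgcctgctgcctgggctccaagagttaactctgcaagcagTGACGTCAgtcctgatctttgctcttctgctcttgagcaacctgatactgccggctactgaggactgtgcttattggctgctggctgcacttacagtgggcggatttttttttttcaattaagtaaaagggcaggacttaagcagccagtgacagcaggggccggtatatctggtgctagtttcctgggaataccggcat
Slc25a36: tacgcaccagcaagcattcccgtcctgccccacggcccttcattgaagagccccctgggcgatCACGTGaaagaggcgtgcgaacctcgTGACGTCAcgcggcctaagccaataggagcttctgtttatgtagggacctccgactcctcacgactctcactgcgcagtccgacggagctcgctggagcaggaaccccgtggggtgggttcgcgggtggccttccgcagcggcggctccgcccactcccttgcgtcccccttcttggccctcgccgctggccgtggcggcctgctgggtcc
Slc25a33: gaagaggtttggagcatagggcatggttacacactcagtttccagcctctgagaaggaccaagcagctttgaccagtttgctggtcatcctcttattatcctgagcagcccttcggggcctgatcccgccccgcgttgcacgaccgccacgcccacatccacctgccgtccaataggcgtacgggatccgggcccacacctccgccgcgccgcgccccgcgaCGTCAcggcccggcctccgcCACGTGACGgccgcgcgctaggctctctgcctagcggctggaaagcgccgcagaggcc

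Among carriers of coenzymes, nucleotides and glutathione, 7 of 10 lay above 0, with a median difference of 0.057. The share above 0 was 43.5% over all genes and 52.6% over genes at or above the median level, where all but 1 of the 10 lay. Of the 7 above 0, Slc25a26, Slc25a32, Slc25a39 and Slc25a51 changed sign in at least 1 alternative setting. The other 3 were Slc25a36, Slc25a42 and Slc25a16. Slc25a42, which brings coenzyme A into the matrix, read 9.00, 8.70 and 9.03 in WT and 9.10, 9.13 and 9.32 in GRK2+/- hearts. The groups did not overlap, but WT heart 2 lay well below the other WT hearts. The difference was 0.27 ± 0.10 (SE, n = 3 per group), or 1.21-fold, with a limma adjusted p of 0.294, and the second probe set gave -0.0039. Slc25a16, also linked to coenzyme A transport, had a WT mean of 8.31 and differed by 0.13 ± 0.07, and the NAD carrier Slc25a51 had a WT mean of 10.73 and differed by 0.13 ± 0.08, both with overlapping groups. Slc25a17, the peroxisomal coenzyme carrier, had a WT mean of 8.36 and differed by -0.10 ± 0.08. The glutathione carrier Slc25a39 read from 13.14 to 13.17 in WT and from 13.18 to 13.27 in GRK2+/- hearts, so that the groups did not overlap, but the difference was only 0.060 ± 0.07 and its 5 probe sets ran from -0.094 to 0.060. Its paralogue Slc25a40 had a WT mean of 7.87 and differed by -0.059 ± 0.08. The S-adenosylmethionine carrier Slc25a26 (WT mean 9.21) differed by 0.049 ± 0.07, with a second probe set at -0.26 whose groups were separate, and the folate carrier Slc25a32 (WT mean 6.28) by 0.053 ± 0.09.

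Of the iron carriers, mitoferrin 1 lay higher at an unadjusted p under 0.05 and mitoferrin 2 had no such p. Slc25a37 (mitoferrin 1), which supplies iron for haem synthesis and is most abundant in red cell precursors, read 8.90, 8.41 and 8.37 in WT and 8.79, 9.07 and 9.10 in GRK2+/- hearts. WT heart 1 lay above GRK2+/- heart 1, so the groups overlapped. The difference was the largest of the 44, at 0.43 ± 0.14 (SE, n = 3 per group), or 1.35-fold, with a limma adjusted p of 0.248. It was 0.60 without WT heart 1. Of the 5 erythroid markers 3 were measured, and among them Alas2, the haem synthesis enzyme of red cell precursors, read 9.93, 8.86 and 8.84 in WT and 9.61, 9.49 and 9.77 in GRK2+/- hearts. Alas2 was thus also high in WT heart 1, and differed by 0.42 ± 0.24. The erythroid anion exchanger Slc4a1, with separate groups and a WT mean of 6.52, differed by 0.18. Hba-a1 differed by -0.11, but its WT mean of 4.86 lay below the 25th percentile of all genes (5.76). The mean of the 3 markers relative to WT ran from -0.14 to 0.27 in WT and from 0.13 to 0.21 in GRK2+/- hearts. It includes the dim Hba-a1, and its part in the difference of Slc25a37 was not tested. Slc25a28 (mitoferrin 2), the form of most other cells, had a WT mean of 9.12 and differed by 0.045 ± 0.09. Slc25a38, which imports glycine for haem synthesis, read 8.68, 8.56 and 8.61 in WT and 8.39, 8.45 and 8.50 in GRK2+/- hearts. Its groups did not overlap, and the difference was -0.17 ± 0.07 (SE, n = 3 per group), or 1.13-fold lower, with a limma adjusted p of 0.317. In bulk tissue, fewer cells of a type and less RNA per cell cannot be told apart.

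Among carriers of the malate-aspartate shuttle, which moves NADH equivalents into mitochondria, no member passed even the unadjusted threshold in the main fit. Slc25a12 (aralar), the aspartate/glutamate carrier of heart, read 11.92, 11.83 and 11.89 in WT and 11.90, 11.69 and 11.78 in GRK2+/- hearts, and differed by -0.086 with a 95% interval from -0.25 to 0.081. Slc25a13 (citrin), its counterpart in liver, had a WT mean of 10.72 and differed by -0.089 ± 0.08. Slc25a11, the oxoglutarate/malate carrier, read 13.0025, 12.91 and 12.95 in WT and 12.92, 12.78 and 12.78 in GRK2+/- hearts. GRK2+/- heart 1 lay just inside the WT range, and the difference of -0.13 had a 95% interval from -0.29 to 0.030. The enzyme partners of the shuttle gave -0.23 ± 0.08 for the cytosolic transaminase Got1, 0.016 for the mitochondrial transaminase Got2, -0.031 for Mdh1 and 0.029 for Mdh2. Got1 read 13.72, 13.60 and 13.63 in WT and 13.56, 13.31 and 13.39 in GRK2+/- hearts, without overlap (limma adjusted p = 0.274).

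The glutamate carriers differed from each other in direction and in noise. Slc25a22 read 9.45, 9.40 and 9.34 in WT and 9.50, 9.70 and 9.75 in GRK2+/- hearts, and all GRK2+/- values lay above all WT values. The difference was 0.25 ± 0.08 (SE, n = 3 per group), or 1.19-fold, with a limma adjusted p of 0.242. Slc25a18, a form known from brain astrocytes, was dim here, with a WT mean of 6.33. It read 6.13, 6.18 and 6.69 in WT and 6.12, 5.81 and 6.20 in GRK2+/- hearts, and its difference of -0.29 ± 0.15 was -0.11 without WT heart 3.

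The other di- and tricarboxylate carriers had no member at an unadjusted p under 0.05. The dicarboxylate carrier Slc25a10 read from 8.32 to 8.47 in WT and from 8.26 to 8.31 in GRK2+/- hearts, without overlap, and differed by -0.094 ± 0.07; its second, also lower, probe set gave -0.31. The citrate carrier Slc25a1, which exports citrate for lipid synthesis, had a WT mean of 7.53 and differed by 0.091 ± 0.12 and by -0.0435 without WT heart 3. The less studied Slc25a34 and Slc25a35, which resemble dicarboxylate carriers, had WT means of 11.08 and 7.23 and differed by 0.14 ± 0.10 and -0.14 ± 0.11, with overlapping groups.

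Slc25a20, the carnitine/acylcarnitine carrier of fatty acid oxidation, read 11.95, 11.83 and 12.09 in WT and 11.90, 11.92 and 11.97 in GRK2+/- hearts. The GRK2+/- values lay inside the WT range, the difference was -0.026 with a 95% interval from -0.20 to 0.15, and its second probe set gave -0.029. Among the enzymes that work beside it, Cpt1a, which makes acylcarnitines at the outer membrane, read 8.81, 8.56 and 8.76 in WT and 9.05, 9.13 and 9.11 in GRK2+/- hearts, a difference of 0.38 ± 0.08 (limma adjusted p = 0.134). Cpt2 and Crat, which act on the matrix side, differed by 0.079 and 0.083. Of the amino acid carriers, Slc25a15, the ornithine carrier of the urea cycle, read 8.65, 8.52 and 8.42 in WT and 8.68, 8.70 and 8.78 in GRK2+/- hearts. The groups were separate by a narrow margin, the difference was 0.19 ± 0.08 (SE, n = 3 per group), or 1.14-fold, with a limma adjusted p of 0.318, and its second probe set gave -0.028. The second ornithine carrier, Slc25a2, had a WT mean of 4.38, near the bottom of the scale, and differed by 0.061 ± 0.08. The basic amino acid carrier Slc25a29 had a WT mean of 8.64 and differed by -0.11 ± 0.08, with all 5 probe sets below 0. The branched-chain amino acid carrier Slc25a44 had a WT mean of 7.59 and differed by -0.023 ± 0.07. Slc25a45, Slc25a47 and Slc25a48 had WT means of 7.81, 7.10 and 6.47 and differed by -0.13 ± 0.09, 0.047 ± 0.10 and -0.10 ± 0.09, with overlapping groups.

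The carriers that resemble uncoupling proteins had overlapping groups. Slc25a30, known as a kidney carrier, had a WT mean of 8.38 and differed by -0.12 ± 0.09, with all 5 probe sets below 0 (from -0.22 to -0.051). Slc25a14 and Slc25a27, known mainly from brain, had WT means of 7.27 and 6.87 and differed by 0.22 ± 0.12 and -0.072 ± 0.07. In Slc25a14 GRK2+/- heart 2 (7.75) stood above the others, and without it the difference was 0.084. The uncoupling proteins themselves have the carrier fold but another symbol and so are no members. Of these, Ucp3, a protein of muscle induced with fatty acid supply, read 8.35, 8.39 and 8.86 in WT and 8.76, 9.41 and 9.35 in GRK2+/- hearts, a difference of 0.64 ± 0.18 (limma adjusted p = 0.205) with overlapping groups. Ucp1 was dim and differed by -0.084, the related outer membrane proteins Mtch1 and Mtch2 by -0.0063 and -0.041, and Ucp2 was not analysed here. The remaining members were Slc25a46, an outer membrane protein of mitochondrial shape (WT mean 10.57, difference -0.037, with a second probe set of WT mean 10.41 at 0.17 and separate groups), Slc25a53 (WT mean 6.00, difference -0.099) and Slc25a54 (WT mean 4.72, difference -0.00089).

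**Figure D3:**
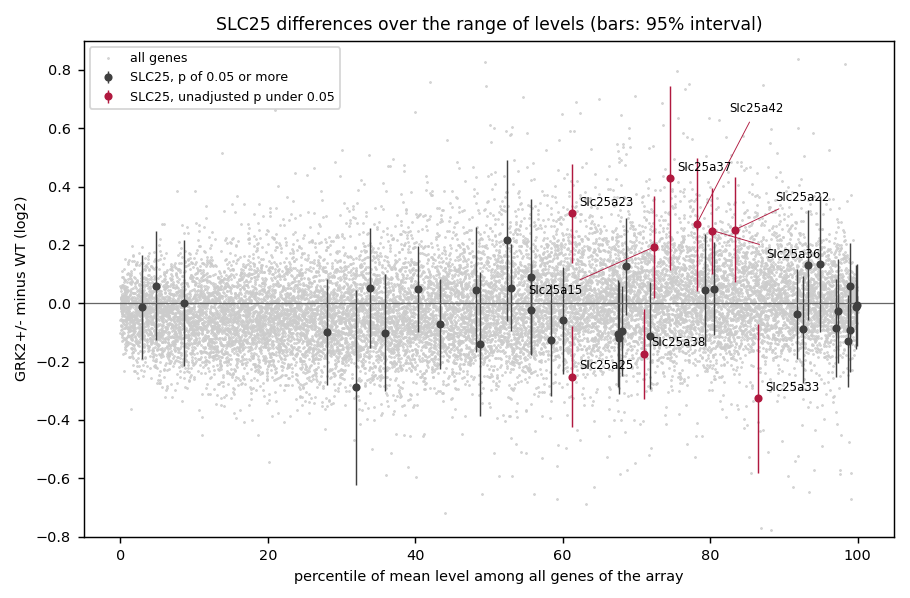
Difference between GRK2+/- and WT hearts (vertical axis, log2) against the percentile of a gene's mean level among all 18193 genes (horizontal axis). Grey points are all genes, of which 22 lie outside the axis; circles with 95% intervals are the 44 SLC25 genes, in red where the unadjusted p was under 0.05. The red members run from -0.33 to 0.43 and none is among the 11 members of the brightest 10%.

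Differences were also read by brightness. The median absolute difference of the members was 0.086 in the brightest 10% of genes and 0.127 between the 50th and the 90th percentile. Below the median level it was 0.061, and over all genes in the same 3 bands it was 0.067, 0.091 and 0.083. In the brightest 5% of genes were 7 of the 44 carriers, Slc25a3, Slc25a4, Slc25a5, Slc25a11, Slc25a12, Slc25a20 and Slc25a39. In the brightest 10% were 11, with differences from -0.13 to 0.14, and 0 of the 11 had an unadjusted p under 0.05, beside 12.1% of all genes at that brightness. All 9 members with such a p in the main fit were among the 22 carriers between the 50th and the 90th percentile, where 17.1% of all genes had one. These bands were drawn after the values were seen. Levels of 11 members lay under 7.24, the median over all genes, and those of 3 (Slc25a2, Slc25a31 and Slc25a54) below the 25th percentile, and 0 of these 11 had an unadjusted p under 0.05, beside 11.9% of all genes below the median. Brightness of different probe sets depends on their sequences as well as on RNA amount, so the percentile does not say which carrier is most abundant. Slc25a4 and Slc25a3, with WT means of 14.72 and 14.40, lay near the highest value on the arrays, 15.11. How the signal responds to RNA amount at that level was not tested.

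Agreement between probe sets was limited. The 44 genes had 93 probe sets, of which 0 passed an adjusted p of 0.05 in limma over all 45037 probe sets and 17 had an unadjusted p under 0.05, beside 12.8% of all probe sets. Of these 17, 8 were not the ones used: 2 of Slc25a29 and 1 each of Slc25a5, Slc25a10, Slc25a26, Slc25a30, Slc25a36 and Slc25a46, of which those of Slc25a26 and Slc25a46 lay on the other side of 0 from the probe set used. Of 23 genes with several probe sets, 8 had all of them on the same side of 0: Slc25a10, Slc25a17, Slc25a20, Slc25a25, Slc25a29, Slc25a30, Slc25a36 and Slc25a44. With centred arrays 9 genes had all of them on the same side. The probe sets used for Slc25a20 and Slc25a44 then turned to the other side of 0. Among the 9 called members, Slc25a25 and Slc25a36 agreed over their probe sets, Slc25a15 and Slc25a42 did not, and Slc25a22, Slc25a23, Slc25a33, Slc25a37 and Slc25a38 had a single one. With all probe sets averaged Slc25a15 was 0.083 and Slc25a42 0.13. For Slc25a5, 7 of 8 probe sets were below 0, from -0.17 to 0.027. The probe sets used for Slc25a5, Slc25a29 and Slc25a39 carry the platform's x suffix, for probes that can also match other sequences, and those for Slc25a26 and Slc25a47 the s suffix, for probes shared between transcripts of several genes.

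**Figure D4:**
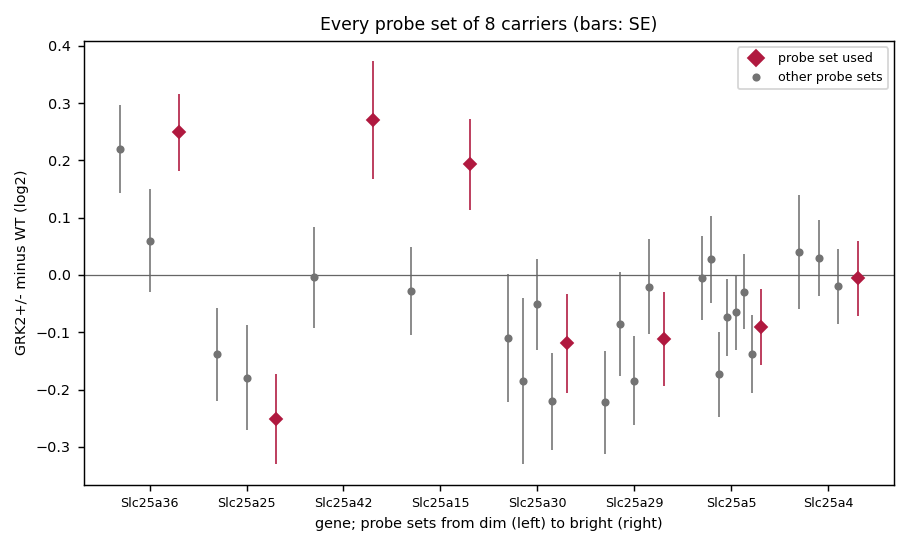
Difference between GRK2+/- and WT hearts (vertical axis, log2, bars are SE) for every probe set of 8 carriers, ordered within a gene from dim to bright (horizontal axis). Red diamonds are the probe sets used; those of Slc25a36 lie above 0 and those of Slc25a25, Slc25a30 and Slc25a29 below it, while the dimmer probe sets of Slc25a42 and Slc25a15 lie at -0.0039 and -0.028.

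Leaving out single hearts separated the called members. Slc25a23, Slc25a25 and Slc25a36 kept an unadjusted p under 0.05 in all 16 alternative settings, with differences of 0.26 to 0.35, -0.32 to -0.19 and 0.18 to 0.28. Slc25a22 lost it in 1, without GRK2+/- heart 3 (0.20). Slc25a33 lost it without GRK2+/- heart 2 (-0.24) and without WT heart 3 (-0.23), and Slc25a37 without WT heart 2 (0.35) and without WT heart 3 (0.33). Slc25a42 lost it without GRK2+/- heart 3 (0.20) and without WT heart 2 (0.16). Slc25a15 and Slc25a38 each lost it in 7 settings, with differences of 0.083 to 0.25 and -0.20 to -0.14. The direction of all 9 was the same in each of the 16 settings.

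Genes that import carriers into the inner membrane, work beside them or regulate mitochondrial genes were counted beside the background of 14%. Of the 13 genes of carrier import, 1 (7.69%) had an unadjusted p under 0.05, the outer membrane receptor Tomm22. It read 10.91, 10.73 and 10.78 in WT and 10.65, 10.56 and 10.54 in GRK2+/- hearts, a difference of -0.23 ± 0.08 without overlap (limma adjusted p = 0.249). The carrier translocase Timm22 differed by -0.093, its small chaperones Timm9 and Timm10 by -0.00065 and -0.12, and the carrier receptor Tomm70a by 0.11. Of 23 measured genes of other mitochondrial transport and shuttle partners, 3 (13%) had such a p: Cpt1a was higher, and Got1 and the inner membrane transporter Abcb8 were lower. Abcb8 read 9.39, 9.42 and 9.48 in WT and 9.15, 9.29 and 9.21 in GRK2+/- hearts, without overlap, and differed by -0.21 ± 0.07 (limma adjusted p = 0.248). The pyruvate carrier subunit Mpc1 differed by -0.082, the porins Vdac1, Vdac2 and Vdac3 by -0.0071, -0.11 and -0.048, and the calcium uniporter Mcu by 0.028. Of 10 regulators of mitochondrial genes, 2 (20%) were higher at such a p, both coactivators of the PGC-1 family and both without overlap. Ppargc1b read 10.27, 10.18 and 10.02 in WT and 10.81, 10.97 and 11.21 in GRK2+/- hearts, a difference of 0.84 ± 0.11 (limma adjusted p = 0.0632). Pprc1 read 8.33, 8.04 and 8.11 in WT and 8.43, 8.54 and 8.42 in GRK2+/- hearts, a difference of 0.30 ± 0.09 (limma adjusted p = 0.215). Ppargc1a differed by 0.0077, Esrra by -0.0019 and Tfam by 0.072. The medians of the 3 lists were -0.036, -0.023 and 0.040.

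**Figure D5:**
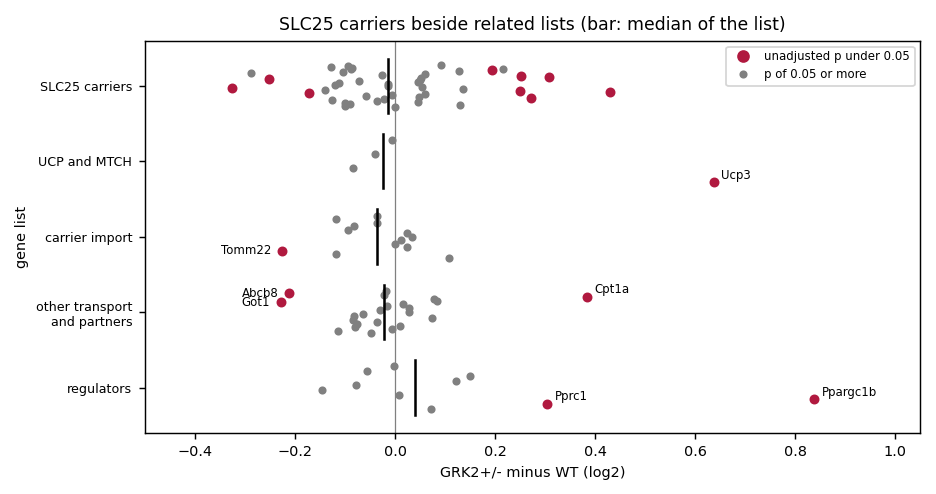
Difference between GRK2+/- and WT hearts (horizontal axis, log2) for each gene of the SLC25 carriers and of 4 related lists (vertical axis); black bars are list medians and red points have an unadjusted p under 0.05. The SLC25 genes spread from -0.33 to 0.43 about a median of -0.014, and Ppargc1b, at 0.84, stands farthest from 0.

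Array medians ran from 6.25 to 6.31 and correlations between arrays from 0.99358 to 0.99673. Of the 7 markers of working cardiomyocytes 6 differed by -0.065 to 0.046, and Ryr2 by 0.35; their WT means ran from 12.65 to 15.09. Of the other cell types, smooth muscle and pericyte markers lay above 0 in 5 of 5 (median 0.31), endothelial markers in 4 of 5 (median 0.13), fibroblast markers in 4 of 5 (median 0.17), epicardial markers in 4 of 4 (median 0.28), leukocyte markers in 2 of 5 (median -0.073) and adipocyte markers in 2 of 5 (median -0.020). Of 4 neutrophil markers S100a8 and S100a9 differed by 1.97 and 2.25 and Ngp and Camp by -0.088 and -0.040. Of the 4 atrial markers 3 lay above 0 (median 0.084): the atrial peptide gene Nppa differed by -1.20 ± 0.27, and Myl4, Myl7 and Sln, with WT means of 7.10, 5.50 and 5.65, by 0.14, 0.11 and 0.054. For the beta-actin control, the probe set at the 3′ end exceeded that at the 5′ end by 0.98 ± 0.08 in GRK2+/- and by 0.78 ± 0.04 in WT hearts (SD, n = 3 each). This gap was thus wider by 0.20 in GRK2+/- hearts; among the other control transcripts the change in the gap was -0.27 (18S RNA), -0.095 (transferrin receptor), 0.021 (pyruvate carboxylase) and 0.025 (Gapdh). The part of these in the carrier differences was not tested. The labels number the hearts but do not say that they came from separate litters or days. The p-values thus rest on the spread between these hearts, moderated by that of all genes. For single values, exact permutation of 3 against 3 hearts reaches no two-sided p under 0.1.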

How the data were processed

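Total RNA from the upper part of 6 mouse hearts was labelled and hybridised to Affymetrix arrays, 1 per heart. The deposited values are log2 probe set summaries; RMA and limma appear, without versions, in what the labels keep per the submitters' processing notes. The joint or separate normalisation of the arrays, and the build, are not stated there. Of 45101 probe sets 64 controls were left out; 34945 of the 45037 tested had 1 gene symbol, 932 had several and 9160 had none. Through the gene identifier, 34741 probe sets received their current symbol from RefSeq's table of mouse genes (GRCm38.p6). The probe set brightest on average stood for each gene.

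Differences are GRK2+/- minus WT from a two-sided moderated test (lmFit, then eBayes, of limma 3.58.1 under R 4.3.3) fitted over all 18193 genes. Benjamini-Hochberg adjusted p-values were read at 0.05. Differences are given ± SE from 3 hearts per group, a number that sets the precision. The fit was tested on simulated data. Values of every heart are given for members with an unadjusted p under 0.05 (the rule asked that groups also be separate, which Slc25a33 and Slc25a37 were not; these, Slc25a18, Alas2 and Ucp3 were added after their values were seen), for 6 carriers of the working heart listed by symbol (Slc25a3, Slc25a4, Slc25a5, Slc25a11, Slc25a12, Slc25a20) and for members of the related lists by the same rule, up to 3. The members and lists were chosen with earlier results of these data known. The main fit did not pair hearts by replicate number. Deviations of same-numbered hearts correlated at -0.183, -0.0051 and 0.0159, and those of differently numbered hearts at -0.162 to 0.159. Such correlations cannot show whether same-numbered hearts shared a litter or a day.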

Additional observations from a re-analysis of the deposited data

How the results depend on the processing

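The 16 alternatives were 2 other scalings, 2 other rules for a gene's probe set, 2 filters on dim genes, a prior that followed the mean level, array weights, a replicate block, platform symbols as given, and each heart left out in turn. The count of members past the adjusted threshold was 0 in each. Over all genes it was 12 with the most variable probe set, 12 with array weights, 6 without genes under the median level, 42 with the prior that followed the level, 1 with the replicate block, and 0 to 56 with a heart left out. The members higher at an unadjusted p under 0.05 numbered 3 to 7 of 44 with a heart left out, beside 3.91% to 7.94% of all genes. The lower ones numbered 1 to 4 with a heart left out, beside 4.96% to 8.85% of all genes. They numbered 5 with the most variable probe set, beside 8.3% of all genes. With the prior that followed the level, which added Slc25a5 and Slc25a11, they also numbered 5, beside 7.54% of all genes. Members with separate groups numbered 10 to 21 over all settings other than the mean of probe sets (9), and 13 to 21 with a heart left out. The share of all genes with separate groups was not counted in these settings, so these numbers have no background beside them. The median difference of the members was 0.0148 after centring, beside a median over all genes of 0.0101 (-0.0189 as deposited). With the replicate block 8 of 44 members had an unadjusted p under 0.05, beside 12.5% of all genes. Of these 8 members, 7 were among the 9 of the fit without it. Of the 35 other members 19 changed sign in at least 1 setting, so their directions are not settled; the cause was not tested. The number of arrays, and for members near the bottom of the scale the signal over background, limits what can be seen.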

Other observations

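Carriers differed in how closely hearts of a group agreed. Within WT hearts the SD of Slc25a4 was 0.0088 and that of Slc25a3 0.018, whereas it was 0.31 for Slc25a18, 0.30 for Slc25a37, 0.23 for Slc25a1 and 0.19 for both Slc25a42 and Slc25a54. In the gene order of the RefSeq table Slc25a41 and Slc25a23 are neighbours on chromosome 17, and differed by 0.048 and 0.31. Slc25a29 and Slc25a47 are neighbours on chromosome 12 and differed by -0.11 and 0.047, and Slc25a54 and Slc25a24 on chromosome 3 differed by -0.00089 and 0.053.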
